A study of Mus musculus with 6 samples.

Results

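The miR-181 family is a group of microRNAs whose 5p forms share 1 seed, the stretch of bases 2 to 8 that pairs with target transcripts. Its members were taken by name, as every mouse miRNA on the array called miR-181a, miR-181b, miR-181c or miR-181d, with both arms of the precursor. They were 10 of the 1247 mouse miRNAs on the array, 4 of them 5p forms and 6 of them 3p forms. Liver RNA was measured from 6 male C57BL/6 mice, 3 in each group, with 1 array for each mouse. Mice of the CCl4 group were given carbon tetrachloride, which injures hepatocytes and leads to fibrosis when given repeatedly, at 0.6 mL/kg in corn oil by injection into the peritoneum. The corn oil group received the same volume of corn oil. Mice were 7 weeks old at the start, they were injected 2 times weekly over 10 weeks, and the liver was collected 48 h following the final injection.

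Members of the miR-181 family are made from clustered genes as pairs of an a or c form with a b or d form, and the 5p arm is the strand usually loaded into the silencing complex. The family is best known from lymphocytes, where miR-181a sets the sensitivity of T cell receptor signaling, and from the endothelium, where miR-181b restrains inflammatory signaling. In the liver it has been studied in hepatic stellate cells, the collagen-producing cells of fibrosis, and in tumor cells with stem cell features.

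All 10 members matched a mature sequence in the RefSeq table of build GRCm38.p6, where they come from 6 genes. The 5p forms are shown because only they were detected, written 5′ to 3′ with the seed in capitals.
miR-181a-5p: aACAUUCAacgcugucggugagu
miR-181b-5p: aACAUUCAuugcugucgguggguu
miR-181c-5p: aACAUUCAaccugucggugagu
miR-181d-5p: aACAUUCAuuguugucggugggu
The seed ACAUUCA was found in these 4 miRNAs and in no other mature mouse miRNA of the table, which holds sequences for 1017 of the 1247 array miRNAs. Counted from the 5′ end, miR-181a-5p and miR-181b-5p differ by A9U, C10U and A21G and by 1 base in length. miR-181b-5p and miR-181d-5p differ by C12U and by 1 base in length, and miR-181a-5p and miR-181c-5p differ by a single edit. Signal from 1 form on the probes of another was not tested.

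The mature miR-181a-5p lies on the plus strand at chr1:137966468-137966490 in Mir181a-1 and at chr2:38852741-38852763 in Mir181a-2. The mature miR-181b-5p lies on the same strand at chr1:137966650-137966673 in Mir181b-1 and at chr2:38853845-38853868 in Mir181b-2. The genes on chromosome 1 precede Ptprc, the gene of the leukocyte antigen CD45, and those on chromosome 2 lie within the spans of Nr6a1 and Nr6a1os. The remaining pair is on the minus strand of chromosome 8, with miR-181c-5p at chr8:84178924-84178945 and miR-181d-5p at chr8:84178759-84178781, between Nanos3 and Mir23a. Because the copies of miR-181a-5p have the same sequence, as do those of miR-181b-5p, the array cannot tell from which gene their signal came.

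The number of detected miRNAs was 193, 186 and 187 in the corn oil livers and 245, 227 and 334 in the CCl4 livers. The third CCl4 array stood apart from the others. Its rank correlation over the 166 miRNAs detected on all 6 arrays was 0.86 with each of the other CCl4 arrays, which correlated at 0.979 with each other. It was also brighter overall: the 75th percentile of the miRNAs detected on all arrays was 163, 152 and 162 with corn oil and 278, 221 and 723 with CCl4. For the 5p forms, the sums and the differences fitted over all miRNAs are therefore given with and without it. The CCl4 arrays occupied row 1 and the corn oil arrays row 2 of the same slide, so position and treatment cannot be told apart. The number of arrays limits the precision of every value.

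The liver label was checked against 5 hepatocyte miRNAs. All 5 were detected on each array except the third CCl4 array, where miR-122-3p was not. Their summed signal was 20449, 18947 and 20847 in the corn oil livers and 14955, 17730 and 2750 in the CCl4 livers. The most abundant was miR-122-5p, the main hepatocyte miRNA, at 17855, 16613 and 18345 in the corn oil livers and 13110, 15544 and 2158 in the CCl4 livers. Scaled to a common 75th percentile of the miRNAs detected on all arrays, the summed signals were 29699, 29529 and 30577 with corn oil and 12785, 19025 and 903 with CCl4, so that every CCl4 array lay lower. In the limma fit described below 0 of the 4 tested were called, with a median log2 difference of -1.73, or -0.52 without the third CCl4 array. Hepatocyte miRNAs were thus detected on every array. On the array labelled CCl4 replicate 3 their summed signal was far lower than on any other, while the endocrine list described below was far higher. Not each of them fell as far: the raw signal of miR-148a-3p was 292 there against 378 to 447 elsewhere. The liver label of that array is borne out less well by its markers than those of the other 5, and the identity of its sample was not tested.

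mmu-miR-181a-5p, the member with the most detections, was not detected on any corn oil array. On the CCl4 arrays its total signal, a background-subtracted intensity on a linear scale, was 8.05 with an error of 1.46 given by the software, 5.31 with an error of 1.36, and 60.02 with an error of 5.45. It was therefore detected in all 3 CCl4 livers, and the third stood far above the others. Of its 40 spots, 47.5%, 7.5% and 100% were well above background on these arrays, against 0%, 0% and 2.5% on the corn oil arrays. It has 2 probes, and 1 of them passed detection on the first and second CCl4 arrays while both passed on the third.

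mmu-miR-181b-5p was detected on the third CCl4 array alone, with a total signal of 37.2 and an error of 3.73. On that array 97.5% of its spots were well above background, against 2.5% and 0% on the other CCl4 arrays. miR-181d-5p, whose gene neighbors that of miR-181c-5p, was likewise detected only there, with a total signal of 37.4 and an error of 3.82. miR-181c-5p was detected on the first CCl4 array at 4.78 with an error of 1.30 and on the third at 70.7 with an error of 5.72. No 5p form was detected in a corn oil liver, and the third CCl4 liver was the only one with all 4.

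The 6 3p forms, which are usually the less abundant strand, were not detected on any array. None of their 14 probes exceeded 1.06 times its error, and their summed probe signals lay between -2.84 and 2.05. No spot of any member was saturated.

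Among all 1247 miRNAs, 158 were detected on at least 1 CCl4 array and on no corn oil array, which is 12.7%, and the 4 5p forms were among them. The reverse pattern held for 6 miRNAs and for no member. miR-181a-5p was 1 of 22 miRNAs detected on all CCl4 arrays and no corn oil array, 1.76% of those on the array. miR-181b-5p and miR-181d-5p belonged to the miRNAs detected on the third CCl4 array alone, 8.90% of those on the array. On the other 5 arrays 2 of the 10 members were detected, miR-181a-5p on 2 of them and miR-181c-5p on 1, against 254 of all 1247 miRNAs, 20.4%.

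The software sets the total signal of an undetected miRNA to 0.1, which is not a measurement. The flag was found to be set exactly where at least 1 probe had a signal over 3 times its error, in all 7482 combinations of miRNA and array. For a 5p probe on the corn oil arrays this limit lay between 3.50 and 3.76, so a signal below it was not detectable there. The signals of all probes of a miRNA were therefore also summed whether or not they passed, which gives a value on every array.

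The summed probe signal of miR-181a-5p was 2.76, 1.35 and 2.83 in the corn oil livers and 9.93, 6.22 and 60.02 in the CCl4 livers. The groups did not overlap, and the lowest CCl4 liver lay above the highest corn oil liver. The mean was 2.31 ± 0.835 (SD) with corn oil and 25.4 ± 30.04 with CCl4, a difference of 23.1 (two-sided exact permutation p = 0.1, n = 3 per group). Comparing 3 livers with 3, such a test cannot give less than 0.1. Without the third CCl4 array the difference was 5.76 (exact p = 0.2, the smallest possible with 2 against 3).

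For miR-181b-5p the summed probe signal was 0.0382, -0.626 and 1.05 in the corn oil livers and 4.64, 2.16 and 37.2 in the CCl4 livers. The groups did not overlap, although only the last of these values passed detection. The difference in means was 14.5 (exact permutation p = 0.1, n = 3 per group) and 3.25 without the third CCl4 array (exact p = 0.2). The SD of the CCl4 group was 19.5, larger than the difference.

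miR-181c-5p, the member that differs from miR-181a-5p by a single edit, had summed probe signals of 2.19, 0.0386 and 3.74 in the corn oil livers and 7.33, 2.84 and 70.7 in the CCl4 livers. Here the groups overlapped, because the second CCl4 liver lay below the third corn oil liver (difference 25.0, exact permutation p = 0.2, n = 3 per group). Without the third CCl4 array the difference was 3.09 (exact p = 0.4). For miR-181d-5p the signals were 0.734, 0.224 and 1.15 in the corn oil livers and 3.69, 1.65 and 37.4 in the CCl4 livers. Its groups did not overlap (difference 13.5, exact permutation p = 0.1, n = 3 per group), and the difference was 1.96 without the third CCl4 array (exact p = 0.2).

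**Figure D1:**
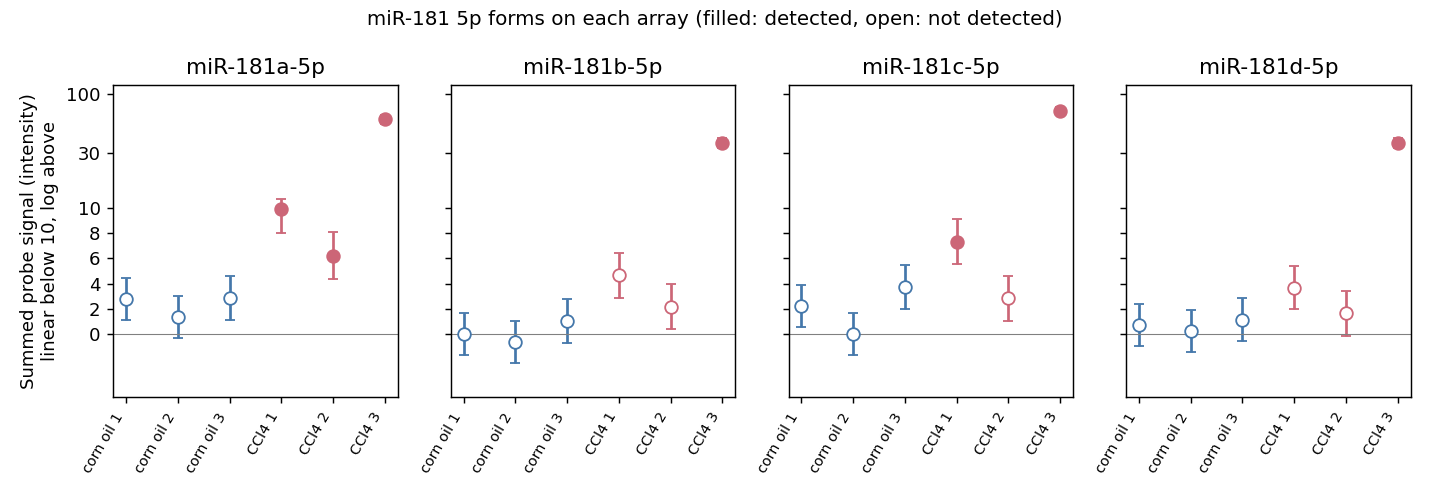
Summed probe signal (intensity, linear below 10 and logarithmic above) of the 5p forms on each corn oil and CCl4 array, without scaling between arrays. Bars are the error given by the software, filled points passed detection and open points did not; the third CCl4 array is highest for each form, at 37.2 to 70.7.

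Thus 3 of the 4 5p forms had every CCl4 array above every corn oil array. This held for 306 of all 1247 miRNAs, 24.5%, while 88 miRNAs, 7.06%, had every CCl4 array below. Leaving out the third CCl4 array cannot undo this pattern, so the same 3 forms had it by construction. The c form did not gain it, and 339 miRNAs or 27.2% then had it. With each array scaled to a common 75th percentile of the miRNAs detected on all arrays, again 3 of the 4 forms kept it, against 281 miRNAs or 22.5%. So scaled, miR-181a-5p stood between 2.10 and 4.16 in the corn oil livers and at 8.49, 6.67 and 19.7 in the CCl4 livers, where the third array was again highest but less far from the others. The scaled differences in means were 8.20, 5.96, 7.94 and 4.70 for the a, b, c and d forms (exact permutation p = 0.1, 0.1, 0.3 and 0.1, n = 3 per group). Their units are set by the common percentile, so they are not compared with the unscaled differences. Leaving out the third CCl4 array gave, in the same units, 4.16, 2.94, 1.74 and 1.43 (exact p = 0.2, 0.2, 0.6 and 0.2). Among the 3p forms, miR-181a-1-3p showed it before scaling and miR-181b-2-3p and miR-181c-3p after it, with no probe detected.

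In the comparison of the groups over the miRNAs detected on all 6 arrays, limma called 20 of 166 miRNAs, 12%, with the thresholds set at 2-fold and an adjusted p of 0.05. Of these, 12 were higher and 8 lower in the CCl4 group. No member of the family was detected on all arrays, so 0 of the 10 were tested there. A fit over all 1247 miRNAs was therefore made from spot signals corrected with normexp, a method that keeps dim spots positive, with an offset of 50 that shrinks differences between dim miRNAs.

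In this fit miR-181a-5p had log2 values of 6.32, 6.22 and 6.30 in the corn oil livers and 6.44, 6.39 and 6.60 in the CCl4 livers. The groups did not overlap for this form. The share of all miRNAs without overlap in this fit was not counted, so this is not read as a trait of the member. In the summed probe signals 24.5% of all miRNAs lay wholly above and 7.06% wholly below. The log2 difference, CCl4 minus corn oil, was 0.20 (standard error 0.06), with a limma p of 0.0285 and an adjusted p of 0.202. It was higher in 3 of 3 CCl4 livers than the corn oil mean and did not pass the adjusted threshold, and its sign depended on the scaling. It was -0.43 with each array scaled to the 75th percentile of the miRNAs detected on all arrays, which moved the median of all miRNAs to -0.86, and 0.37 with the 75th percentile of all miRNAs, where that median was -0.05. Relative to the median it was 0.42 in both, and 0.17 in both without the third CCl4 array. The turned sign thus came with a shift of all miRNAs. With quantile normalization and without the third CCl4 array the difference was 0.09 (limma adjusted p = 0.130).

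The log2 difference of miR-181b-5p was 0.17 (standard error 0.07, limma adjusted p = 0.298), from 6.16 ± 0.06 (SD) with corn oil to 6.33 ± 0.12 with CCl4. The values were 0.20 for miR-181c-5p (limma adjusted p = 0.503) and 0.13 for miR-181d-5p (limma adjusted p = 0.380). Unlike in the summed signal, the b form overlapped here, with the second CCl4 liver at 6.2175 and the third corn oil liver at 6.2228. The c form overlapped too, at 6.2701 and 6.3647 in the same livers. The d form did not, a pattern whose share of all miRNAs was not counted in this fit. Without the third CCl4 array the b, c and d forms had 0.08, 0.05 and 0.04. All 3 were also negative with the 75th percentile of the miRNAs detected on all arrays, and they were 0.26, 0.39 and 0.22 with that of all miRNAs. Under the latter scaling without the third CCl4 array they were 0.08, 0.08 and 0.04. The 3p forms lay between -0.04 and 0.01. By limma, 0 of the 10 members passed the adjusted p and 1 passed an unadjusted p under 0.05, against 15 (1.2%) and 232 of 1247 miRNAs. Of the 15, 8 were higher in the CCl4 group, 0.642%. Again 0 of the 10 passed the adjusted p without the third CCl4 array, against 109 of 1247 miRNAs, 8.74%, of which 53 were higher with CCl4. With the 75th percentile of the miRNAs detected on all arrays, the 6 undetected 3p forms passed it as lower (limma adjusted p = 0.0334 each), along with 1015 of 1247 miRNAs, 81.4%, of which 10 were higher.

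Other scalings of the normexp values gave other calls without the third CCl4 array, all computed after seeing the data. miR-181a-5p passed the adjusted p as higher, at 0.15 with the 75th percentile of all miRNAs (limma adjusted p = 0.0429) and at 0.20 without normalization (limma adjusted p = 0.00482). It was the only member to pass there, against 139 (11.1%) and 155 (12.4%) of 1247 miRNAs. Of these, 102 and 144 were higher with CCl4. With the 75th percentile of the miRNAs detected on all arrays, the a, b, c and d forms had -0.34, -0.41, -0.41 and -0.45, and all 10 members passed as lower, against 1176 miRNAs or 94.3%, with a median of -0.51. The call and the sign of miR-181a-5p thus depended on the scaling. Relative to the median of all miRNAs it had 0.17 in each of these settings. They differ by a shift of all miRNAs of an array alike, so the turned sign says nothing about miR-181a-5p by itself.

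The total signals gave values that turned on where the undetected ones were placed. With the lowest detected signal of each array put in before quantile normalization over all 1247 miRNAs, the log2 differences were 1.64, 0.41, 1.24 and 0.42 for the a, b, c and d forms (limma adjusted p = 0.389 each). With it put in after normalization they were -0.46, -2.28, -0.63 and -2.03, the b and d forms passing the adjusted p (limma, 0.0146 and 0.0353). The 6 3p forms, detected on no array, passed it more strongly, each at -3.17 (limma adjusted p = 0.00290), which was also the median of all miRNAs. Thus 8 of the 10 members passed as lower, against 1028 of 1247 miRNAs, 82.4%, of which 1017 were lower with CCl4. No member was detected with corn oil, so each of these sizes depends on the placed value. None is a measured fold, and no pass is a test of a member. Leaving out the third CCl4 array, miR-181a-5p had 0.67 with the value put in before normalization (limma adjusted p = 0.000844). It was 1 of 41 miRNAs or 3.29% to pass, but all its corn oil values are placed, so this is no test either. miR-181c-5p had 0.13, while the b and d forms were then detected nowhere. With the value put in after normalization, all 10 members passed as lower, against 1079 miRNAs or 86.5% passing, which is no test for the same reason. miR-181a-5p had -1.95, miR-181c-5p had -2.38 and the others had the median of all miRNAs, -2.95.

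A lower bound on the fold change of miR-181a-5p could not be given. Its mean log2 total signal over the CCl4 arrays, scaled to the 75th percentile, was 3.20, and in the corn oil livers the lowest signal well above background averaged 3.99 on the same scale, from 10.4 to 11.3 before scaling. That floor is for signals well above background and is higher than the probe limits of 3.50 to 3.76 given above, so the missing bound is no statement about detection. Without the third CCl4 array the mean was 2.65. The other 5p forms had undetected totals within the CCl4 group, and no fold is given for them. The planned test of whether miR-181a-5p and miR-181b-5p changed by unequal amounts needed both to be detected on all arrays, and so it was not made.

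Markers of other cell types also differed among the arrays. All 7 leukocyte miRNAs were on the array, and their summed signal was 118, 101 and 119 in the corn oil livers and 577, 429 and 694 in the CCl4 livers. Scaled to the common 75th percentile, the CCl4 sums were 494, 461 and 228 against 158 to 175 with corn oil, so the third CCl4 array was the lowest of its group. The most abundant was miR-142-3p, a hematopoietic miRNA, in the corn oil livers, and miR-223-3p, a myeloid miRNA, on the first and second CCl4 arrays. miR-155-5p was detected on the first CCl4 array alone, and miR-150-5p on no corn oil array. In the fit of 166 miRNAs, 0 of the 4 tested leukocyte miRNAs were called, with a median log2 difference of 0.69. miR-342-3p, the most abundant of the list on the third CCl4 array, had 0.85 (limma adjusted p = 0.0144), short of the 2-fold threshold. miR-223-3p was called without the third CCl4 array, at 1.75 (limma adjusted p = 0.00183).

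Of the mesenchymal list, 6 of 7 names were on the array. The summed signal was 82.0, 67.2 and 109 in the corn oil livers and 643, 255 and 1236 in the CCl4 livers, with miR-199a-3p, a miRNA of stellate cells and fibroblasts, the most abundant on each. The CCl4 arrays were all higher, also after scaling, where they had 550, 274 and 406 against 105 to 160, and 2 of the 4 tested miRNAs were called, both higher, with a median log2 difference of 1.31. miR-199a-5p rose by 1.34 (limma adjusted p = 0.0323) and miR-199b-5p rose by 2.28 (limma adjusted p = 0.0159). Both were still called without the third CCl4 array, at 1.35 and 2.08 (limma adjusted p = 0.0340 and 0.0234). In the normexp fit used for the members neither passed, with 0.35 and 0.78 (limma adjusted p = 0.309 and 0.106).

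The endocrine list of miR-375-3p, miR-7a-5p and miR-7b-5p separated the third CCl4 array from the rest. Its summed signal was 10.9, 9.65 and 9.75 in the corn oil livers and 13.5, 9.87 and 1952 in the CCl4 livers, all from miR-7a-5p except on the third CCl4 array, which alone had all 3 detected. The largest there was miR-7a-5p at 985, and 0 of 1 tested miRNA was called. Its log2 difference was 1.07, and -0.54 without the third CCl4 array. Of the brain list, 5 of 6 names were on the array and 3 were detected on the third CCl4 array, where the sum was 95.6 against 9.55 to 16.7 elsewhere. Scaled to the common 75th percentile, the brain sum was 31.4 there against 12.1 to 16.7 elsewhere. miR-219-5p was the most abundant, miR-9-5p and miR-9-3p were detected on no array, and 0 of 1 tested miRNA was called. The tested one was miR-219-5p, with a log2 difference of -0.19, and -0.47 without the third CCl4 array.

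Both endothelial miRNAs were detected on every array, with summed signals of 658, 563 and 677 in the corn oil livers and 824, 821 and 3732 in the CCl4 livers, mostly from miR-126-3p. Scaled, the sums overlapped, at 955, 878 and 994 with corn oil and 704, 881 and 1225 with CCl4. Their median log2 difference in the fit was 0.13, and -0.08 without the third CCl4 array. Of the red cell list, 2 of 3 names were on the array, and the sums were 466, 754 and 700 in the corn oil livers and 730, 315 and 2135 in the CCl4 livers, mostly from miR-451a. These raw sums do not carry the direction of the fit, where the median log2 difference was -0.55, and -0.72 without the third CCl4 array. Scaled, the sums were 677, 1176 and 1026 with corn oil and 624, 338 and 701 with CCl4. Neither list had a called miRNA among its 2 tested. In whole liver, a change in the number of cells of a type and a change in RNA per cell cannot be told apart, and the part of these cell types in the signals of the miR-181 family was not tested.

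**Figure D2:**
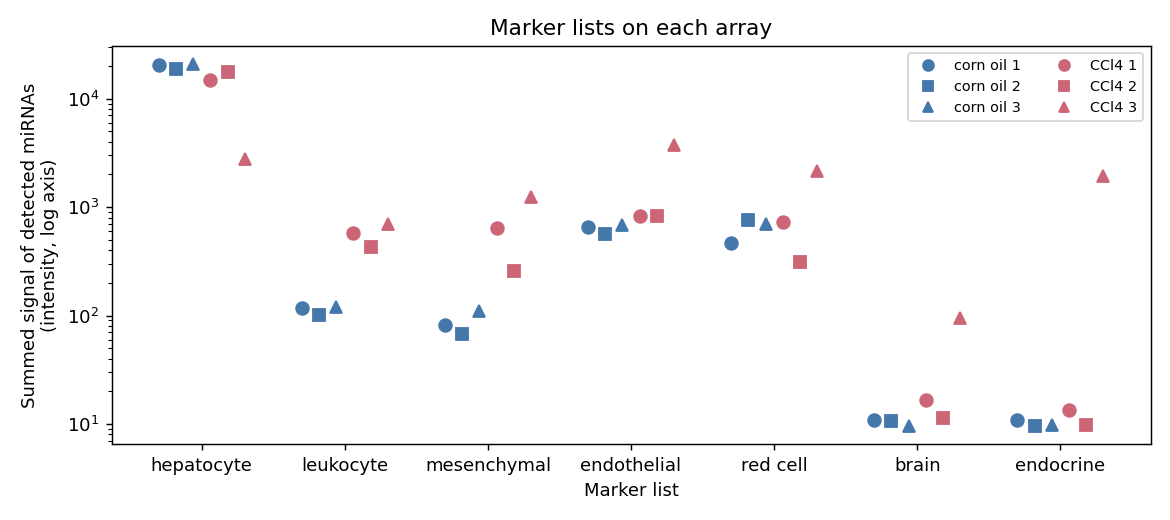
Summed signal of the detected miRNAs of each marker list (intensity, log axis) on each array, without scaling between arrays, with color for the group and shape for the replicate. The hepatocyte list is lower on the third CCl4 array, at 2750, than on any other array, and the endocrine list is higher there, at 1952 against 9.65 to 13.5 elsewhere. This order held after scaling to the common 75th percentile (903 for the hepatocyte list and 641 for the endocrine list), while the leukocyte, mesenchymal and red cell lists, highest there in raw signal, were then not.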

How the data were processed

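Scanner output of 6 Agilent 1-color miRNA arrays was used. The authors made it with Agilent Feature Extraction 11.0.1.1, as linear intensity after background subtraction, without normalization across arrays. The deposited value table holds quantile-normalized intensity of 111 miRNAs and no member of the family, and its values were not used. Control spots were left out.

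As the study's methods describe in outline, log2 total signals were quantile normalized over miRNAs with the detection flag on every array and fitted with limma 3.58.1 in R 4.3.3, with Benjamini-Hochberg adjustment. The filter kept 166 miRNAs here, not the 111 of the deposited table, so that set was not reproduced. Because no member was among the 166, members were fitted over all 1247 miRNAs after normexp correction (offset 50) of median spot signals and quantile normalization. That fit and the sums of probe signals were chosen after seeing the data. Both fits were tested on simulated data, with equal spread in both groups and added changes larger than the members had in the normexp fit. That test therefore says nothing about the differences of the members. Exact permutation tests used scipy 1.17.1, with Python 3.11.15, numpy 2.4.6, pandas 2.3.3 and matplotlib 3.10.9.

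The text names the family, miRNAs sharing its seed and the marker lists. Members and lists were chosen with earlier results of these data known. Gene neighbors were taken from RefSeq tables of GRCm38.p6. The file headers name another build, and coordinates are those of the RefSeq sequences.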

Additional observations from a re-analysis of the deposited data

Results flagged for a closer look

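5p forms of the miR-181 family passed detection on CCl4 arrays but on no corn oil array, and lay outside the fit of the miRNAs detected on all arrays. The total signal of miR-181a-5p was 8.05, 5.31 and 60.02 on CCl4 arrays 1, 2 and 3. miR-181c-5p had 4.78 on CCl4 array 1 and 70.7 on CCl4 array 3. On the latter miR-181b-5p had 37.2 and miR-181d-5p 37.4.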

How the results depend on the processing

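The count of called miRNAs was 20. It was 0 with the 75th percentile of all miRNAs, which is the placeholder 0.1 on 5 arrays and a measured 5.18 on CCl4 replicate 3, so that this value tests nothing; 32 over the 215 miRNAs detected on all arrays of 1 group, 6 without a filter (14 with ties at the floor not averaged) and 7 over the 113 miRNAs with over 50% of spots well above background. With the floor set after scaling it was 1028 without a filter (11 higher) and 34 over the 215. Normexp gave 4 over the 166 miRNAs and 4 over all. At the adjusted p alone it gave 19 and 15, against 22 in the main fit. Its offset shrinks differences, so the 2-fold threshold is not alike there. Without normalization the 18 called were all higher with CCl4, against 12 of 20. Leaving out corn oil replicates 1, 2 and 3 in turn gave 7, 5 and 6, and leaving out CCl4 replicates 1, 2 and 3 gave 5, 21 and 28. The cause of these shifts was not tested. The replicate numbers do not pair the samples (correlations -0.18, 0.109 and 0.029), and the replicate block gave 6 calls and changed no call of a member.

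Without a filter and with the floor set after scaling, a, b, c and d had -0.46, -2.28, -0.63 and -2.03; with the floor set before it they had 1.64, 0.41, 1.24 and 0.42. Without normalization normexp gave 0.44, 0.33, 0.46 and 0.29. Without CCl4 replicate 3, the floor after scaling gave -1.95 (a), -2.95 (b), -2.38 (c) and -2.95 (d), and the floor before it 0.67 (a). The 75th percentile of the miRNAs detected on all arrays gave -0.34, -0.41, -0.41 and -0.45, that of all miRNAs 0.15 (a) and no normalization 0.20 (a). The values just given without CCl4 replicate 3 all passed the adjusted p. In the floor fits, however, all corn oil values of members are placed, so those passes are no tests. The b, c and d forms had 0.08, 0.08 and 0.04 with the 75th percentile of all miRNAs and 0.13, 0.14 and 0.09 without normalization, none passing. With 1 array left out, the log2 difference ranged from 0.09 to 0.24 for miR-181a-5p and from 0.08 to 0.23 for miR-181b-5p. Normexp values scaled to the 75th percentile of the miRNAs detected on all arrays gave -0.43, -0.54, -0.41 and -0.58 for the a, b, c and d forms. Relative to the median of all miRNAs these were 0.42, 0.31, 0.45 and 0.27, and without CCl4 replicate 3 they were 0.17, 0.10, 0.10 and 0.06. Over the 215 miRNAs, miR-181a-5p had 0.95 (-0.50 with the floor set after scaling), 1.66 with the 75th percentile and 2.81 without normalization, but it entered only through its detection with CCl4 and all its corn oil values are the floor, so these are no tests and no measured folds.

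For the undetected 3p forms the floor set after scaling gave -3.17 each (a-1, a-2, b-1, b-2, c and d; limma adjusted p = 0.00290), and the 75th percentile of the miRNAs detected on all arrays gave -0.86 (a-1), -0.89 (a-2), -0.87 (b-1), -0.87 (b-2), -0.85 (c) and -0.88 (d). Signs turned near 0 without normalization for a-1 (0.0063) and b-1 (0.0014), and with the 75th percentile of all miRNAs for c (-0.0525). With 1 array left out, the ranges were -0.0258 to 0.0025 (a-1), -0.0154 to 0.0007 (b-2) and -0.0021 to 0.0202 (c). Without CCl4 replicate 3, the floor after scaling gave -2.95 for each of the 6. The 75th percentile of the miRNAs detected on all arrays then gave -0.52 (a-1), -0.53 (a-2), -0.53 (b-1), -0.51 (b-2), -0.52 (c) and -0.53 (d). That of all miRNAs gave -0.0286 (c), and no normalization 0.0172 (a-1), 0.0105 (a-2), 0.0164 (b-1), 0.0292 (b-2) and 0.0124 (d).

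No value for members came from the mean processed spot signal, the 50% filter or, except for miR-181a-5p, detection on all arrays of 1 group. With the floor set before scaling, forms undetected everywhere have no order. The test between miR-181a-5p and miR-181b-5p was not run. The normexp settings, the other scalings of the 215 miRNAs, the floor after scaling, the ties, the scalings without CCl4 replicate 3 and the sums without CCl4 replicate 3 or scaled to the 75th percentile were chosen after seeing the data.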
